A study of Mus musculus with 426 samples.

Results

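The genes of oxidative phosphorylation described here are the 81 rows of the RNA table, of 24424 gene rows, whose symbols begin with the names of nuclear-encoded subunits of the respiratory chain and ATP synthase (Ndufa, Ndufb, Ndufc, Ndufs, Ndufv, Uqcr, Cox4 to Cox8 and Atp5), leaving out the assembly factors named Ndufaf. By symbol 38 belong to complex I, 8 to complex III, 18 to complex IV and 17 to complex V. Of these, 78 encode subunits and 3 matched by name only: Atp5s and Atp5sl, named after ATP synthase, and Cox7a2l, which acts in joining complexes III and IV. They were measured in single cells of a mouse pancreatic tumour model by GTO-seq, in which messenger RNA and genomic DNA of a cell are amplified in the same tube. The tumours came from KPC1199-EGFP, a pancreatic tumour line of mouse that carries green fluorescent protein (GFP). Its cells were placed in matrigel into the pancreas of male C57BL/6 mice aged 6 to 8 weeks, 50000 cells per mouse, and grew for 6 to 8 weeks. No other genotype or treatment was compared, so all groups share this line and host.

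From the primary tumours of 3 mice, live single cells were sorted as GFP+, as EpCAM+ (an epithelial surface protein), as GFP+EpCAM+ or as CD45+ (the surface protein of leukocytes). Metastases gave further GFP+ cells: those in the peritoneum in all 3 mice, and those in kidney, in liver and in spleen in mice 2 and 3. After a filter of 500 genes and 10000 counts, 368 of 418 cells remained: 76 GFP+, 25 EpCAM+, 31 GFP+EpCAM+ and 56 CD45+ from the primary tumour, and 85 from peritoneum, 44 from kidney, 16 from liver and 35 from spleen. They held 10805 to 17845616 RNA counts, with a median of 65672 in liver and 522487 to 2093406 in the other groups. The replicate was the mouse: counts were summed over the cells of a mouse and group and given as CPM, the count divided by the total and scaled to 1000000, and a single cell held 75.3% of the liver sum of mouse 2, 63.2% of the EpCAM+ sum of mouse 2 and 48.7% of that of mouse 3. The sorts matched 10 leukocyte markers, which summed to 11192 to 13565 CPM in CD45+ cells and 8.21 to 1303 CPM in the other sums. The 12 epithelial markers summed to 12697 to 28178 CPM in the EpCAM+ and GFP+EpCAM+ sums. In GFP+ cells of the primary tumour they ran from 981 to 10056 CPM and 10 fibroblast markers from 4161 to 22059 CPM. GFP+ cells were thus not uniformly epithelial by RNA. In CD45+ cells of mice 1, 2 and 3 the epithelial markers summed to 410, 2469 and 805 CPM. The CD45+ value of mouse 2 lay above the 2231 CPM of its GFP+ primary cells. In 2 pairs of peritoneum libraries of mouse 1 the DNA counts differed by less than sampling noise, and each pair was counted as 1 cell, although their RNA counts differed by more than that noise.

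Complex I takes electrons from NADH, complex III passes them from ubiquinol to cytochrome c, and complex IV passes them to oxygen; all of these pump protons, and complex V, the ATP synthase, uses the proton gradient to make ATP. Complexes I, III, IV and V are built from subunits of the nuclear and the mitochondrial genome, so their nuclear genes are often read together as a measure of a cell's investment in respiration. Tumour cells and leukocytes are known to divide ATP production between glycolysis and oxidative phosphorylation in ways that differ by cell state. Mitochondrially encoded subunits are not among the gene rows used here, and levels are compared between groups for the same gene or sum, not between genes, because transcript length was not corrected for.

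The promoters of these genes are known as targets of the nuclear respiratory factor NRF1, of ETS-family factors that include NRF2 (GABP), and of YY1, and 4 are printed because each holds such a core motif. RefSeq promoters (build GRCm38.p6, 250 bases before to 50 after the start) were matched by symbol for 67 of the 81 genes, 3 of them by an older symbol. Capitals mark GCGCATGC (NRF1), CCGGAAG (ETS) or AAGATGGC (YY1), searched on both strands. They stand 5′ to 3′ on the strand of the gene.
Ndufs3, chr2:90904672-90904971, strand minus: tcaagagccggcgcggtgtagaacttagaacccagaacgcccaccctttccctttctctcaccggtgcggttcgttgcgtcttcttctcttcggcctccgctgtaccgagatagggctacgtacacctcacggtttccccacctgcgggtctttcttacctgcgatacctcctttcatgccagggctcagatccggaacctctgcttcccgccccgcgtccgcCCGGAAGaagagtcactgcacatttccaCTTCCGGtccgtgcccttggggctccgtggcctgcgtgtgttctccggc
Uqcr11, chr10:80406772-80407071, strand minus: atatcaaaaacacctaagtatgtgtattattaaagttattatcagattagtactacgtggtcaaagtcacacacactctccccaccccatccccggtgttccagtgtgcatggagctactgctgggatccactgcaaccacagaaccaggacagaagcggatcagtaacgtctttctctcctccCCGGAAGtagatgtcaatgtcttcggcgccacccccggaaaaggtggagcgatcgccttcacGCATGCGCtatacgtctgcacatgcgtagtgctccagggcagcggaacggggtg
Cox6a1, chr5:115348909-115349208, strand minus: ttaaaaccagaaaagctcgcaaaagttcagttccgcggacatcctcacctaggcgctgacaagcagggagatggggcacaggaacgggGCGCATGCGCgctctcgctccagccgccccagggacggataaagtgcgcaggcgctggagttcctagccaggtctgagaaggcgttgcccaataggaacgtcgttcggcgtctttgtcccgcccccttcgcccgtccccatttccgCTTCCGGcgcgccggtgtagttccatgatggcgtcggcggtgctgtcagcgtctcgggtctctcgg
Atp5j, chr16:84834927-84835226, strand minus: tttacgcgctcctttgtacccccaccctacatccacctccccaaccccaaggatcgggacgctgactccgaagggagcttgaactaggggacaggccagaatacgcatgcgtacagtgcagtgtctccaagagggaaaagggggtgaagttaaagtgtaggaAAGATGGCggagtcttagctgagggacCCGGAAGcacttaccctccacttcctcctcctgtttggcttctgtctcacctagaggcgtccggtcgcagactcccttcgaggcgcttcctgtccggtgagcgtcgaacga

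Ndufs3, a core subunit of complex I, held the ETS letters on the forward strand from position -27 and on the reverse strand from position 2, counted from the start site. Uqcr11, a small subunit of complex III, held ETS letters at -66 and reverse NRF1 letters at -4. In Cox6a1, the widely used form of a complex IV subunit, the NRF1 letters at -162 are palindromic, so that the forward and the reverse match overlap, and a reverse ETS match lies at -16. Atp5j, the coupling factor 6 of ATP synthase, held YY1 letters at -88 and ETS letters at -61 before 1 of its 2 starts in the table. Of the 67 promoters, 9 (13.4%) held the NRF1 letters. The share was 3.05% of all 27025 genes with a promoter in the table and 3.94% of the protein-coding genes. The ETS letters were in 14 (20.9%, against 9.93% of all and 12.9% of protein-coding genes). The YY1 letters were in 11 (16.4%, against 3.19% and 3.57%). At least 1 of the 3 was in 43.3% of the members, against 14.9% of all genes and 18.7% of 17492 protein-coding genes. A match describes the letters in the window and was not tied to binding in these cells.

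The 81 genes together took 1.24% of RNA counts in GFP+ cells of the primary tumour. Their summed level there was 16442, 9239 and 11468 CPM in mice 1, 2 and 3, which is 12383 ± 3687 CPM (SD, n = 3). EpCAM+ cells stood at 11342, 13616 and 9726 CPM and GFP+EpCAM+ cells at 11658, 12042 and 9505 CPM, so these sorts overlapped the GFP+ mice. CD45+ cells stood at 8358, 6990 and 5024 CPM (6790 ± 1676, n = 3), below every mouse of the other primary sorts and 0.438 to 0.756 times the GFP+ level of the same mouse. Peritoneal GFP+ cells were at 15494, 16333 and 14569 CPM (15465 ± 882, n = 3), a narrow band in which mouse 1 was 0.942 times and another mouse 1.77 times its own primary tumour. Kidney cells were at 16734 and 13870 CPM in mice 2 and 3, above the summed level of the primary tumour in both mice. The median over single cells did not show this in mouse 2, with 9886 CPM in kidney and 9905 CPM in the primary tumour, and was 9975 against 8996 CPM in mouse 3. Liver cells were at 9199 and 5892 CPM, which is 0.996 and 0.514 times the primary tumour of the same mouse, and spleen cells were at 8420 and 12055 CPM, below it in mouse 2 and above it in mouse 3. Groups next to each other in the order of their means overlapped over mice, from CD45+ and liver at the low end to kidney and peritoneum at the high end.

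**Figure D1:**
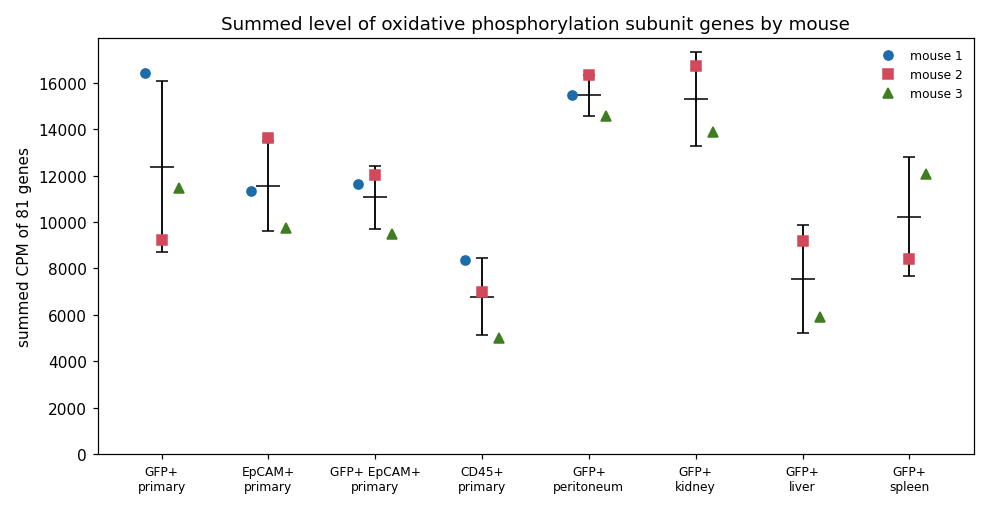
Summed CPM of the 81 genes (y axis, from 0) for each sort and site (x axis); coloured points are mice 1 to 3, the black dash is the mean over mice and the bars are 1 SD. The 3 CD45+ points lie between 5024 and 8358 CPM, under all points of the other primary sorts, and kidney, liver and spleen have mice 2 and 3 only.

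The mouse-to-mouse spread of single genes was wide. Among the 66 members with at least 10 CPM on average over groups, the highest mouse exceeded the lowest by a median of 2.84-fold in GFP+ primary cells, 3.39-fold in CD45+ cells and 1.67-fold in peritoneum (3 mice each). In GFP+ primary cells 50 of the 66 differed by over 2-fold between mice. With counts pooled over mice, a single cell supplied a median of 12.2% of a member's counts in GFP+ primary cells and 88.5% in liver. Mouse 2 brought 19922044 counts to the liver pool and mouse 3 only 535652. The deepest liver cell held 75.3% of all counts in mouse 2 and 30.3% in mouse 3. The 88.5% thus describes mostly mouse 2, and the share per member was not taken for mouse 3 alone. Among the 5 groups with 3 mice, CD45+ cells had the lowest mean for 45 of the 66 members and peritoneum the highest for 36. No member had its lowest mean of those 5 in peritoneum and 1 had it in GFP+ primary cells. These ranks were not counted over all genes, and CPM use library totals. On that scale the median log2 difference of peritoneum from GFP+ primary cells was 0.27 over members and 0.60 over all genes. For CD45+ cells it was -0.95 and 0.37.

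In the comparison of CD45+ with GFP+ cells of the primary tumour, which sets leukocytes against cells of the injected line, 66 of the 74 members tested had a negative log2 difference. The median was -0.94, against 0.20 over all 19703 genes tested, of which 53.5% were positive. Set against the median of all genes, the members lay at -1.14 with the TMM scaling, -1.15 with DESeq2's scaling and -1.32 with library totals, although DESeq2's scaling alone moved the members' own median to -0.21 and that of all genes to 0.94. The medians were -1.01 for complex I (38 tested), -0.59 for III (8), -0.54 for IV (12) and -1.17 for V (16). The edgeR quasi-likelihood test called 0 of 74 members at an adjusted p of 0.05, where it called 0.817% of all genes. At an unadjusted p under 0.05 it had 1 member (17.3% of all genes), DESeq2 called 0 (9.65%), and limma on means over cells called 14, all lower (3.95% of all genes). In 15 members every CD45+ sum lay below every GFP+ sum, against 11.6% of all genes, and in 0 members above it, against 6.54%. The adjusted p of edgeR was 0.0996 or more for every member tested. The sorts also differed in markers: fibroblast genes summed to 51.8 to 246 CPM in CD45+ cells and 4161 to 22059 CPM in GFP+ cells. Of 12 epithelial markers 4 were positive, with a median of -0.15. The part of these markers in the result was not tested.

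Ndufb5, an accessory subunit of complex I, stood at 202, 174 and 118 CPM in GFP+ cells and at 51, 19 and 20.4 CPM in CD45+ cells. The groups did not overlap, and the log2 difference was -2.65 (SE 1.38, edgeR adjusted p = 0.323). Ndufa4, placed in complex I by its name although its protein is known as a component of complex IV, was at 145, 48.3 and 108 CPM in GFP+ and at 37.7, 21.2 and 20.3 CPM in CD45+ cells (log2 difference -1.98, SE 1.41, adjusted p = 0.480). Atp5o, the stalk subunit of ATP synthase also called OSCP, was at 398, 187 and 216 CPM against 152, 50.5 and 46.8 CPM (-1.91, SE 1.18, adjusted p = 0.411). These 3 were lower in 3 of 3 mice with no overlap. Cox5a, a nuclear subunit of complex IV, went the other way in 3 of 3 mice, at 341, 163 and 144 CPM in CD45+ and 255, 72.8 and 134 CPM in GFP+ cells (0.42, SE 1.23, adjusted p = 0.877), with overlapping groups, and turned to -0.67 when each cell was weighted alike. That weighting, by limma on mean log2(CPM + 1) over cells, called Ndufa4 (log2 difference -3.32, adjusted p = 0.0286) and Atp5o (-3.47, adjusted p = 0.0228). Of its other 12 calls, most of them named after their values were seen, 6 were of complex V, among them Atp5a1 (-3.08, adjusted p = 0.0287) and the proton-channel genes Atp5g1 (-3.19, 0.0326) and Atp5g3 (-3.31, 0.0232), 5 of complex I, among them the core subunit Ndufs3 (-2.89, 0.0420), and the last was Cox6a1 (-3.29, 0.0330).

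CD45+ cells differed from GFP+EpCAM+ cells, the primary sort with both labels of the tumour, in the same direction. Of 74 members 66 were negative, with a median of -1.10 against 0.52 for all genes, and -1.62 to -1.79 relative to all genes under the 3 scalings. The edgeR test called 0 members (1.69% of all genes) and had 3 at an unadjusted p under 0.05 (23.6%). DESeq2 called 1 (17.7%) and limma on means over cells 9, all lower (4.14%). The groups did not overlap for 6 members lower (8.44% of all genes) and 1 higher (21.7%). The accessory subunit Ndufb11 was at 66.7, 25.3 and 3.85 CPM in CD45+ and at 97.6, 117 and 44.6 CPM in GFP+EpCAM+ cells (log2 difference -2.41, SE 1.5, edgeR adjusted p = 0.313). Ndufa6, another accessory subunit, was at 6.03, 30.1 and 36.4 CPM against 115, 113 and 50.0 CPM (-2.09, SE 1.45, adjusted p = 0.362). The groups overlapped for Ndufb11 and not for Ndufa6. Limma called Ndufb11 (-3.45, adjusted p = 0.0151) and Ndufa6 (-3.19, 0.0386). Atp5d, the delta subunit of ATP synthase, had a positive difference (1.12, SE 1.59, edgeR adjusted p = 0.651) that became -0.63 with each cell weighted alike.

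Epithelial cells of any origin, sorted as EpCAM+, were set against the GFP+ cells of the same tumours. Of 74 members 58 were negative, with a median of -0.30 against 0.07 for all genes. With DESeq2's scaling the members' median was 0.31 and that of all genes 0.61, so the members lay -0.38 and -0.30 from all genes. The edgeR test called 0 of 74 members and 0% of all genes, and 1 member had an unadjusted p under 0.05 (11.5% of all genes). DESeq2 called 0 members (4.23% of all genes) and limma on means over cells 0 (0.0102%). The groups did not overlap for 4 members lower (7.43% of all genes) and 1 higher (3.37%). Fibroblast markers had a median of -5.94, with 0 of 10 positive, and epithelial markers one of 2.78, with 12 of 12 positive. The part of these markers in the result was not tested. Ndufb5 was again lower, at 41.3, 25.7 and 32.2 CPM in EpCAM+ against 202, 174 and 118 CPM in GFP+ cells, a log2 difference of -2.41 (SE 1.37, adjusted p = 0.530). Uqcrc2, a core protein of complex III, was at 527, 296 and 204 CPM in EpCAM+ against 182, 65.9 and 175 CPM in GFP+ cells, which gave 1.12 (SE 1.25, adjusted p = 0.828), without overlap, and was -0.79 with each cell weighted alike.

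GFP+EpCAM+ and GFP+ cells gave a median of 0.27 over 74 members, 50 of them positive, against -0.23 for all genes, while the summed level was lower in 2 of 3 mice. The sign depended on the scaling: the median was -0.28 with library totals, where that of all genes was -0.80, and the members lay 0.51 to 0.55 above all genes under the 3 scalings. The edgeR test called 0 members and 0% of all genes, with 3 members at an unadjusted p under 0.05 (10.2% of all genes). DESeq2 called 1 member (4.29%) and limma on means over cells 0 (0.299%). The groups did not overlap for 0 members higher (2.0%) and 4 lower (9.59%). Here too the sorts differed in markers, with medians of -2.33 for fibroblast markers (0 of 10 positive) and 3.56 for epithelial markers (12 of 12). Their part in the result was not tested. The call by DESeq2 was Atp5sl, which is no ATP synthase subunit, at 2.69, 70.2 and 31.2 CPM in GFP+ and 0.375, 0 and 0.313 CPM in GFP+EpCAM+ cells (log2 difference -6.73, SE 1.40, DESeq2 adjusted p = 0.000249). By edgeR it was -7.04 (SE 2.22, adjusted p = 0.275), and a single cell gave 62.2% of its counts in GFP+ cells. Atp5sl was also the DESeq2 call of CD45+ against GFP+EpCAM+ cells (4.41, SE 1.40, adjusted p = 0.0148). Among subunits, the complex I accessory genes Ndufb11 and Ndufs4 had the largest positive differences of those with 1 sign in every mouse. Ndufb11 was at 94.4, 56.9 and 35.8 CPM in GFP+ and at 97.6, 117 and 44.6 CPM in GFP+EpCAM+ cells (log2 difference 1.09, SE 1.44, edgeR adjusted p = 0.977). Ndufs4 was at 85.4, 17.7 and 60.2 CPM against 105, 55.8 and 73.5 CPM (1.04, SE 1.43, adjusted p = 0.983), and both genes overlapped between the groups. In the other direction, Ndufs3 was at 69, 72.8 and 69 CPM in GFP+ and at 37.1, 29.3 and 20.5 CPM in GFP+EpCAM+ cells (-0.83, SE 1.45, edgeR adjusted p = 0.990), a steady level over GFP+ mice with no overlap. Atp5g1, which encodes the c-ring subunit of the proton channel, was at 132, 85.6 and 83.8 CPM against 28.7, 29.3 and 78.9 CPM (-0.76, SE 1.38, adjusted p = 0.990).

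**Figure D2:**
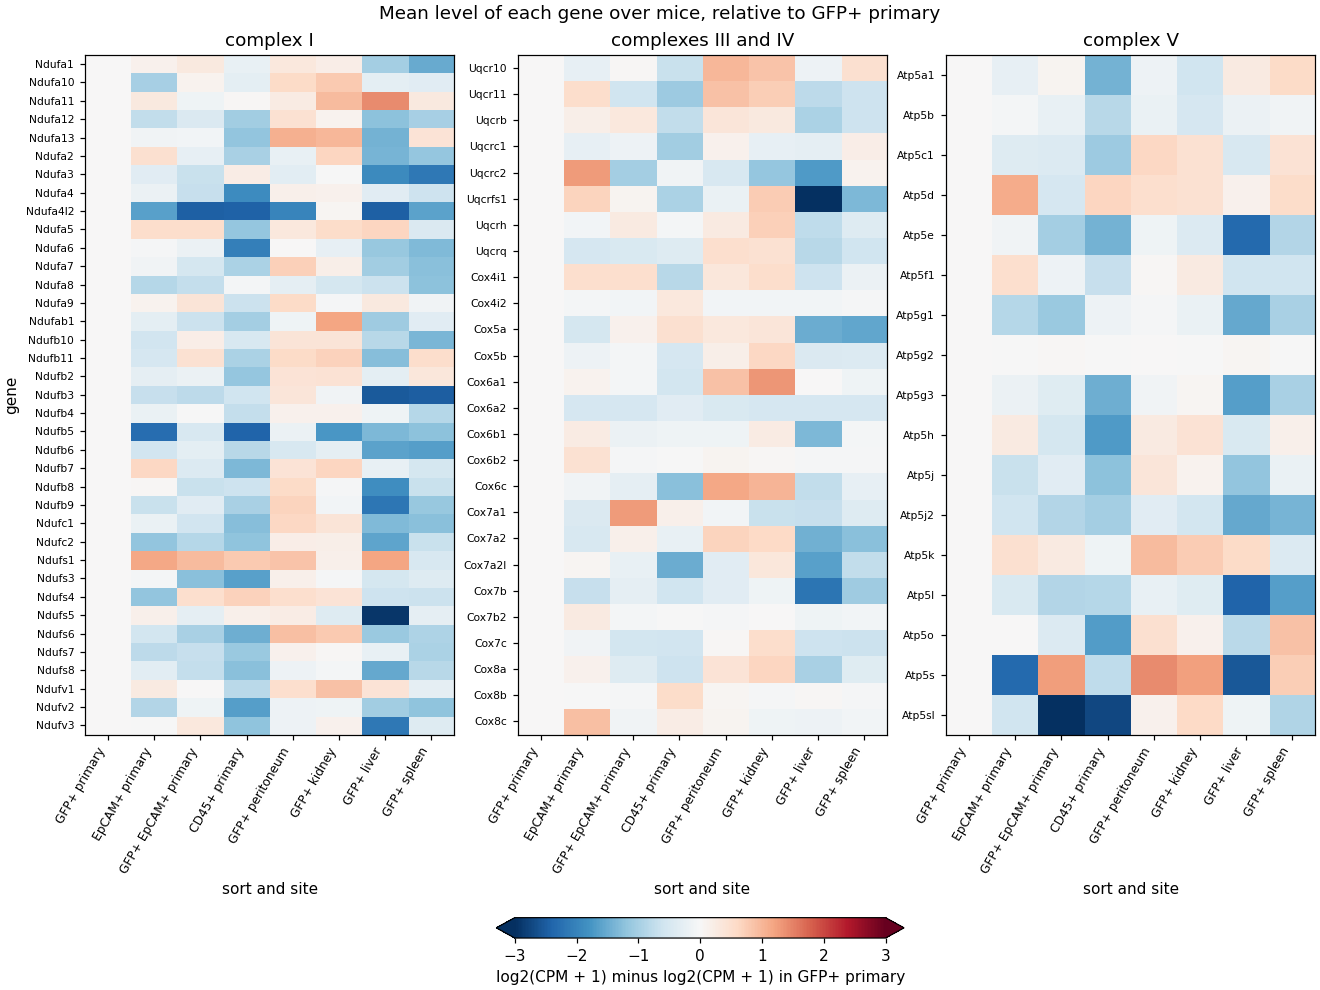
Mean CPM over mice of the member genes, 1 of them left out, in each sort and site, as log2(CPM + 1) minus the same value in GFP+ primary cells (colour, from -3 in blue to 3 in red), in panels by complex. The CD45+ and liver columns are mostly blue and the peritoneum and kidney columns mostly near white or pale red.

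Peritoneal metastases were compared with the primary tumour to ask whether GFP+ cells differ by site. The summed level was higher in 2 of 3 mice, by 3082 ± 4021 CPM within mice (SD, n = 3). By the median over single cells it was higher in 1 of 3 mice, at 12920, 12850 and 7996 CPM in peritoneum against 17697, 9905 and 8996 CPM in the primary tumour. The median over 75 tested members was -0.14 on the TMM scale, against 0.08 for all genes, and 30 were positive. The median was 0.27 with library totals and 0.04 with DESeq2, where all genes stood at 0.60 and 0.18. Leaving out each mouse gave -0.7 to 0.17. The sign thus changed with the scaling and with the mice used. Under the 3 scalings the members lay -0.33 to -0.14 from all genes. The edgeR test called 0 members (0.00910% of all 21988 genes), with 1 at an unadjusted p under 0.05 (6.10%). DESeq2 called 0 members (0.764%) and limma on means over cells 0 (0% of all genes). The groups did not overlap for 6 members higher (4.88% of all genes) and 0 lower (1.53%). Cox6a1 was at 414, 507 and 488 CPM in peritoneum and at 298, 229 and 239 CPM in the primary tumour, with no overlap (log2 difference 0.50, SE 1.03, edgeR adjusted p = 1.000). Uqcr10, a small subunit of complex III, was at 181, 251 and 228 CPM against 134, 71.6 and 121 CPM (0.65, SE 1.14, adjusted p = 1.000). Both were higher in every mouse and far from the threshold, and Uqcr10 stood at -0.02 without mouse 2. Atp5b, the catalytic beta subunit of ATP synthase, was at 444, 929 and 1074 CPM against 534, 987 and 1266 CPM (-0.69, SE 0.95, adjusted p = 1.000), lower in 3 of 3 mice with overlapping groups.

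Kidney metastases had a positive difference for 55 of 75 members, with a median of 0.26 against -0.10 for all genes. That median was -0.09 with the mouse as a block and -1.06 without mouse 2, so its sign changed between fits. Within mice, the median of the members' log2 CPM ratios was positive in both, at 1.05 in mouse 2 and 0.126 in mouse 3. The cause of the change between fits was not tested. By edgeR, the calls were 0 members and 0% of all genes, with 1 member at an unadjusted p under 0.05 (6.01%). DESeq2 called 0 (0.996%) and limma on means over cells 0 (0%). Non-overlapping groups were found for 10 members higher (6.84% of all genes) and 4 lower (6.14%). Cox6a1 led here too, at 627 and 658 CPM in kidney against 298, 229 and 239 CPM in the primary tumour (1.21, SE 1.13, edgeR adjusted p = 1.000). Ndufa13, a complex I subunit also known as GRIM-19, was at 575 and 473 CPM against 385, 140 and 268 CPM (0.97, SE 1.14, adjusted p = 1.000). In both genes the kidney mice lay above all primary tumours. Kidney tubule markers (8 genes) summed to 4.87 and 31.5 CPM in these cells, against 5.56 to 16.1 CPM in the primary tumour. Leukocyte markers summed to 616 and 1303 CPM against 153 to 421 CPM. Fibroblast markers summed to 3104 and 5359 CPM against 4161 to 22059 CPM, with 0 of 10 positive and a median of -1.69. Of 12 epithelial markers 10 were positive, with a median of 1.10. Hepatocyte markers (8 genes) summed to 700 and 51.2 CPM against 0.344 to 113 CPM. The part of these markers in the result was not tested.

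Liver metastases had a negative difference for 71 of 75 members, with a median of -1.58 against -0.61 for all genes. Within mice, the median of the members' log2 CPM ratios was 0.0417 in mouse 2 and -1.01 in mouse 3. In both mice 31 members were lower and 6 higher. Relative to all genes the members lay -0.97 to -1.23 under the 3 scalings. By edgeR, the calls were 0 members (0.0136% of all genes), with 5 at an unadjusted p under 0.05 (14.2%). DESeq2 had 3, all lower (5.25%), and limma on means over cells 0 (0.00455%). Non-overlapping groups were found for 24 members lower (15.7% of all genes) and 2 higher (13.3%). Uqcrfs1, the Rieske iron-sulfur protein of complex III, was at 365, 246 and 267 CPM in the primary tumour and at 15.4 and 52.3 CPM in liver (log2 difference -4.15, SE 1.45, edgeR adjusted p = 0.221). DESeq2 called it (-3.84, SE 0.92, adjusted p = 0.00321). Both liver mice lay below every primary tumour for this gene, with 335 counts in 12 of 16 cells, 45.4% of them from 1 cell. Ndufv3, a flavoprotein-fraction subunit of complex I, was at 41.3 and 103 CPM against 89.9, 537 and 337 CPM (-3.32, SE 1.39, edgeR adjusted p = 0.287), and overlapped, with 77.1% of its liver counts from 1 cell. The other DESeq2 calls were Atp5s, with 3 counts in liver, and Ndufa4l2, with 0 counts in liver and 10 of 76 GFP+ primary cells holding any. The median deepened to -2.51 without the deepest cell of each sum and to -3.25 without mouse 2, when mouse 3 with 535652 counts stood alone. Hepatocyte markers (8 genes) summed to between 4.57 and 54.1 CPM in the liver sums and between 0.344 and 113 CPM in the primary tumour, with Apoa1, Apoa2 and Tat at 0 counts. Fibroblast markers summed to 260 and 6753 CPM in liver against 4161 to 22059 CPM, with 0 of 10 positive and a median of -3.79, and kidney tubule markers to 52.6 and 146 CPM against 5.56 to 16.1 CPM, with a median of 3.11. Their part in the result was not tested.

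Spleen metastases had a negative difference for 66 of 75 members, with a median of -0.76 against 0.01 for all genes, while the summed level was 0.911 and 1.05 times the primary tumour of the same mouse. Complex V, which holds the largest share of the sum, stood at 3810 and 5394 CPM in spleen, above the 3421 and 4386 CPM of the same mice's primary tumours, while its median over genes was -0.54. By edgeR, the calls were 0 members and 0% of all genes, with 0 at an unadjusted p under 0.05 (6.16% of all genes). DESeq2 called 0 members (0.910%) and limma on means over cells 0 (0%). Non-overlapping groups were found for 16 members lower (6.20% of all genes) and 0 higher (6.76%). Ndufb3, an accessory subunit of complex I, was at 20.2 and 11.8 CPM in spleen and at 150, 54.7 and 73.7 CPM in the primary tumour, with no overlap (-2.37, SE 1.55, edgeR adjusted p = 0.967). Atp5a1, the alpha subunit of ATP synthase, was at 1148 and 1702 CPM against 1271, 528 and 1091 CPM (0.34, SE 1.03, adjusted p = 0.999), and Atp5o at 249 and 739 CPM against 398, 187 and 216 CPM (0.52, SE 1.17, adjusted p = 0.999). The difference of Atp5a1 was -0.01 with the mouse as a block and -0.26 without mouse 2, and that of Atp5o was -0.11 without the deepest cell of each sum. Epithelial markers summed to 248 to 351 CPM in spleen, against 981 to 10056 CPM in the primary tumour, and their part in the result was not tested. The comparisons with GFP+ primary cells share those sums, and CD45+ against GFP+EpCAM+ shares both its groups with others, so their values stand side by side and are not independent.

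By complex, the summed levels moved apart between sites. Complex V took 35.6 ± 3.56% of the members' counts in GFP+ primary cells (SD, n = 3), 45.2% and 44.7% in the 2 spleen mice and 26.5% in both kidney mice. The spleen mice thus lay above and the kidney mice below the GFP+ cells of every primary tumour, which ranged from 31.6% to 38.2%. Such shares also occurred elsewhere. Complex V took 46.3% and 36.5% in liver mice 2 and 3. It ran from 27.1% to 43.6% over EpCAM+ mice, from 23.4% to 41.3% over GFP+EpCAM+ mice and from 24.4% to 35.8% over CD45+ mice. Complex IV took 33.1% and 34.4% in kidney, above the 21.9% to 27.6% of the primary tumours. Complex I took 18.1% to 31.5% over all sums and complex III 8.36% to 23%, with GFP+ primary cells at 26.6% to 28.8% and 10.1% to 13.3%. As summed levels, complex V stood at 2036, 2056 and 1801 CPM in CD45+ cells, the steadiest of the 4 complexes there, against 5188, 3421 and 4386 CPM in GFP+ cells. Complex I was at 2250, 2200 and 1081 CPM in CD45+ against 4740, 2541 and 3046 CPM in GFP+ cells, and complex III at 1384, 822 and 858 CPM against 1983, 930 and 1522 CPM, with overlap for complex III. Complex IV overlapped too, at 2688, 1912 and 1283 CPM in CD45+ and 4531, 2348 and 2515 CPM in GFP+ cells.

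**Figure D3:**
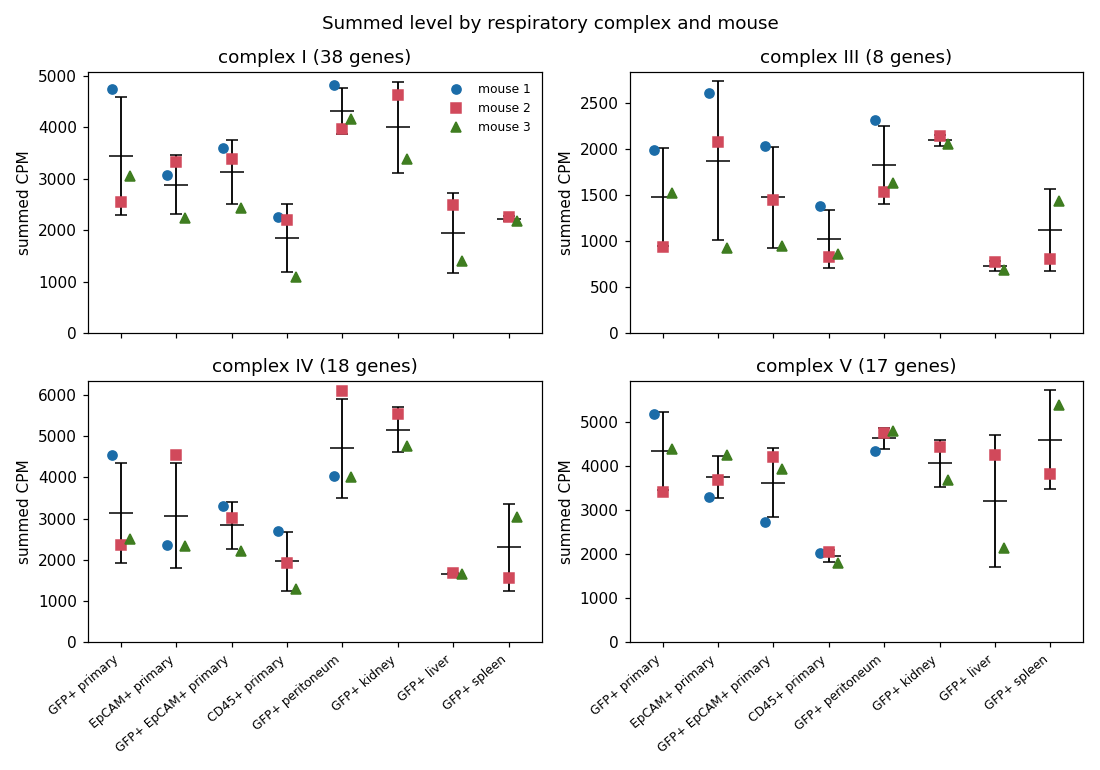
Summed CPM of the genes of complexes I, III, IV and V (1 panel each, y axes from 0) by sort and site; points are mice, dashes means over mice and bars 1 SD. Complex V in CD45+ cells lies between 1801 and 2056 CPM, under all other groups, and complex IV in kidney lies at 4766 and 5532 CPM.

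Among 12 genes chosen to stand for the parts of the complexes, CD45+ cells had the lowest mean of the 8 groups for 8. Over the 66 members with at least 10 CPM on average, CD45+ cells had it for 26 and liver cells for 26. Ndufv1, the NADH-binding flavoprotein, was at 43.6, 238 and 251 CPM in GFP+ primary cells and at 3.06, 298 and 1.54 CPM in CD45+ cells, where mouse 2 alone was high. Its highest mean was 328 ± 40.2 CPM (n = 2) in kidney. Ndufb8, a membrane-arm subunit whose protein is often used to follow complex I, ran from 30.5 ± 16.8 CPM (n = 2) in liver to 168 ± 19.6 CPM (n = 3) in peritoneum. Uqcrc1, a core protein of complex III, ran from 49.1 ± 34.5 CPM in CD45+ (n = 3) to 118 ± 26.8 CPM in spleen (n = 2). Cox4i1, the main isoform of complex IV subunit 4, was at 280, 182 and 174 CPM in GFP+ and at 184, 99.1 and 73.4 CPM in CD45+ cells. Cox6c, another complex IV subunit, stood out by its range, from 368 ± 86.8 CPM in CD45+ cells to 1996 ± 879 CPM in peritoneum (1220, 2950 and 1817 CPM), and 1 peritoneal cell gave 19.1% of its counts there. Atp5b was highest in GFP+ primary cells (929 ± 370 CPM) and lowest in CD45+ cells (522 ± 92.7 CPM), and mouse 1 was its lowest mouse in each of the 5 groups with 3 mice. Atp5g1 ran from 33.7 ± 8.06 CPM in liver to 100 ± 27.1 CPM in GFP+ primary cells.

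Single cells showed which members are general and which are rare. Of the 81 genes, 26 had a count in over 90% of the 368 cells and 55 in over 75%. A further 14 were found in 50% to 75% of cells, and 3 in 30% to 50%: Ndufs5 in 32.9%, Atp5s in 31.8% and Atp5sl in 38.6%. The remaining 9 were found in under 10%, and 8 of these are isoforms that are known from other tissues or conditions, such as muscle, heart, testis or low oxygen. The ninth was Atp5g2, of 3 genes for the same ring protein of ATP synthase, found in 8 cells, against 304 for Atp5g1 and 360 for Atp5g3. Copies of a processed sequence elsewhere in the genome could share reads with several of these genes, and how the counting divided them is not stated in the labels. Reads were assigned to RNA where they fell in exons, so genomic reads in exons can enter isolated counts, and their part was not tested.

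Among the isoform pairs, the lung-type Cox4i2 was found in 14 of 368 cells, never above 8.96 CPM, against 348 cells for Cox4i1. The muscle-type forms Cox6a2, Cox7a1 and Cox8b were found in 11, 33 and 11 cells, against 354 for Cox6a1, 340 for Cox7a2 and 351 for Cox8a. The forms known from testis, Cox6b2, Cox7b2 and Cox8c, were found in 9, 28 and 30 cells. Ndufa4l2, a gene known to be induced by low oxygen, was found in 27 cells. In the primary tumour these were 10 of 76 GFP+ cells with up to 230 CPM, 2 of 25 EpCAM+ cells with up to 104 CPM and 1 of 56 CD45+ cells. At other sites they were 8 of 85 peritoneal, 4 of 35 spleen and 2 of 44 kidney cells. It was found in 0 of 31 GFP+EpCAM+ and 0 of 16 liver cells, which allow shares of up to 9.68% and 18.8% (3 cells of the total, counting error only). Its summed level in GFP+ primary cells was 0, 4.71 and 8.75 CPM in mice 1, 2 and 3, and 1 cell gave 47% of its counts. In CD45+ cells it was at 0, 0.0557 and 0 CPM, with an edgeR unadjusted p of 0.00207 against GFP+ cells. The edgeR adjusted p there, 0.0996, was the smallest by that test of any member in any comparison. In GFP+EpCAM+ against GFP+ cells the edgeR unadjusted p of Ndufa4l2 was smaller, at 0.000752, with an adjusted p of 0.275. Cox7a1 was found in 6 of 31 GFP+EpCAM+ cells with up to 92.8 CPM, and a single cell gave 75% of its counts.

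**Figure D4:**
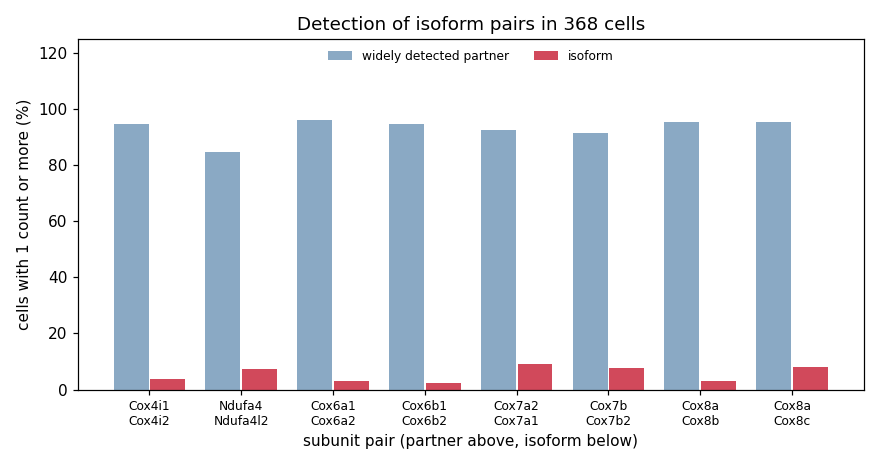
Share of the 368 cells (%) with at least 1 count of each widely detected subunit gene (blue) and of its restricted isoform (red), for 8 pairs. The blue bars lie between 84.8% and 96.2% and the red bars between 2.45% and 8.97%.

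Cells of 1 group varied widely in the summed level of the 81 genes. GFP+ primary cells ran from 3012 to 39051 CPM with a median of 11998 CPM. CD45+ cells ran from 593 to 32874 CPM, and 3 of 56, but no cell of another group, lay under 1000 CPM. The medians of the CD45+ cells of mice 1, 2 and 3 were 5983, 7967 and 1975 CPM, so mouse 3 had the lowest median, and it held both the lowest and the highest CD45+ cell. Fewer members were detected in CD45+ cells: 75 of 81 had a lower share of cells with a count than in GFP+ primary cells. The same number was lower in liver, with 62 in kidney, 51 in spleen and 48 in peritoneum. Of the other primary sorts, GFP+EpCAM+ cells had 46 lower and EpCAM+ cells 40. This was not counted over all genes. At an equal depth of 50000 counts, a CD45+ cell was expected to hold 23.6 ± 10.7 members (SD over 3 mouse medians) and a GFP+ primary cell 51.2 ± 1.95, with 4 and 10 shallower cells left out. Without that adjustment the medians were 51.8 ± 3.62 and 67 ± 1.00 members. Peritoneum, kidney and spleen cells held 49.2, 50.9 and 49.8 members at that depth and liver cells 40 ± 9.04 (n = 2).

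**Figure D5:**
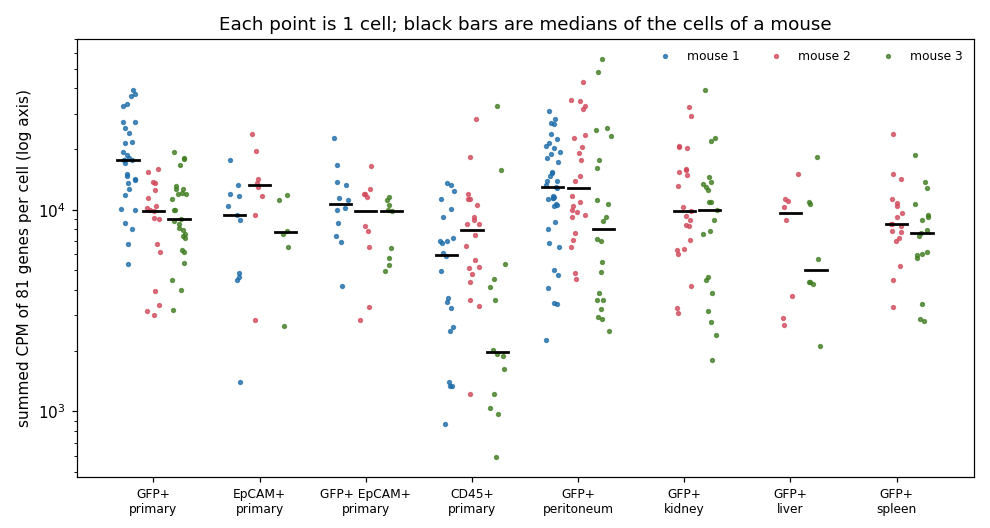
Summed CPM of the 81 genes in each of 368 cells (y axis, log scale) by sort and site, coloured by mouse with a black bar at the median of each mouse. CD45+ cells reach down to 593 CPM, and the median of mouse 3 there is 1975 CPM.

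The sums of the complexes were positively related across cells. Over 16 sets of at least 10 cells of 1 mouse and group, Spearman's rho between complex I and complex IV sums had a median of 0.757 (0.0462 to 0.906), and that between complexes III and V a median of 0.401 (0.0907 to 0.749). These sums share a library, its depth and its total, and are given as a description. The summed level went most closely with 94 genes matched by symbol as cytosolic ribosomal proteins (median rho 0.794, from 0.255 to 0.915). That match also admits symbols that begin with Rpp, so the 94 need not all be ribosomal proteins. The summed level went less with the tricarboxylic acid cycle (0.350, from -0.173 to 0.810) and least with glycolysis (0.155, from -0.664 to 0.684). The 94 genes also moved with the groups. They summed to 6099, 5822 and 3875 CPM in CD45+ cells and to 11923, 12572 and 11425 CPM in GFP+ primary cells. In liver they summed to 8550 and 8762 CPM. Their part in the lower members' level was not tested. In CD45+ cells 7 neutrophil markers, a list added after the data were seen, had a rho of -0.334, -0.379 and -0.393 with the members' sum in mice 1, 2 and 3, with 22, 20 and 14 cells. For 7 macrophage markers the values were -0.0853, 0.516 and 0.640, and for 7 T cell markers 0.0412, 0.188 and 0.0378. These values are a description of few cells, and no difference between mice was tested.

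Lists of complex II, assembly factors and linked pathways, such as the tricarboxylic acid cycle, fatty acid oxidation and glycolysis, were also examined. The edgeR test called 0 of their genes in any of the 8 comparisons, where it called from 0% to 1.69% of all genes. In CD45+ against GFP+ cells all 4 complex II subunits had a negative difference (median -0.45), as had 10 of 13 complex I assembly factors (-0.76), 16 of 18 complex IV assembly factors (-1.02) and 12 of 13 tricarboxylic acid cycle genes (-1.37). Of the 15 glycolysis genes 9 were positive, with a median of 0.26, near the 0.20 of all genes, of which 53.5% were positive. The ratio of the members' sum to the 15 glycolysis genes was 2.56, 0.776 and 0.798 in CD45+ cells and 4.42, 1.46 and 1.41 in GFP+ primary cells of mice 1, 2 and 3, lower in CD45+ cells of each mouse. In peritoneum it was 3.24, 4.40 and 3.39, in kidney 2.12 and 3.35, in liver 1.05 and 1.32 and in spleen 1.46 and 1.15. The glycolysis genes had a negative difference for 14 of 15 in peritoneum (median -1.17), against a median of 0.08 for all genes, of which 52.5% were positive. Their summed level was 4787, 3710 and 4292 CPM in peritoneum and 3724, 6335 and 8122 CPM in the primary tumour. In mouse 1 it was thus higher in peritoneum.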

How the data were processed

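Per the labels' protocols, RNA and DNA of each sorted cell were amplified together, and reads were assigned to RNA where exonic and to DNA otherwise. The RNA values are the authors' deposited expected counts per gene, of which 97.36% are whole. The deposited DNA counts in 5000 bins were used for depth and for the comparison of libraries only. The submitters' processing notes name STAR, kallisto, Bowtie 1.0 and build mm9 without roles; the tool behind the RNA values is not named there. Of 24520 RNA rows, 92 spike-in rows and 4 repeated symbols were left out, which leaves 24424.

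Cells with at least 500 genes and 10000 counts were summed per mouse and group, the sums were rounded to whole numbers, and CPM were taken from their totals (535652 to 84359744 counts). The edgeR 4.0.16 quasi-likelihood test with TMM scaling, its expression filter and Benjamini-Hochberg adjustment at 0.05 was fitted once over the primary sorts (19703 genes) and once over GFP+ primary cells and the sites (21988 genes). Alternatives were DESeq2 1.42.0, limma 3.58.1 on means over cells of log2(CPM + 1), library totals, the mouse as a block, other filters and leaving out each mouse. The same mouse supplied several groups, so the mouse number pairs samples by the labels; deviations of the same mouse correlated with a median of 0.0635 in the primary sorts (18 pairs, from 0.0168 to 0.213) and 0.0732 in the sites (21 pairs, from -0.190 to 0.375). Named genes are those called, up to 3 members per direction and comparison with the largest differences among those of at least 10 CPM and 1 sign in every mouse, 12 representatives and the tissue-specific isoforms. Others named, such as most limma calls, were chosen after their values were seen. Members and lists were chosen with earlier results of these data known. Intervals and limits cover counting error only. The values of 1 member are not reported here.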

Additional observations from a re-analysis of the deposited data

Results flagged for a closer look

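The summed level of the 81 genes in GFP+ cells was higher in kidney than in the primary tumour in 2 of 2 mice, by 4948 CPM on average. These sums weight cells by depth: the median over cells was 9886 CPM in kidney and 9905 CPM in the primary tumour of mouse 2, and 9975 and 8996 CPM in mouse 3, so the excess of mouse 2 was not seen in its cell medians. In liver it was lower in 2 of 2 mice, with an average difference of -2808 CPM. The opposite directions drew attention to the pair, and the difference between the sites was not tested. In mouse 2 the liver level was 0.996 times that of the primary tumour, so the direction in that mouse rests on a small difference.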

How the results depend on the processing

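The edgeR test called no member under any of its own settings. DESeq2 called 1 member in GFP+EpCAM+ against GFP+, 1 in CD45+ against GFP+EpCAM+ and 3 in liver, and limma on means over cells called 14 in CD45+ against GFP+ and 9 in CD45+ against GFP+EpCAM+. The members' median log2 difference changed sign in 4 comparisons. It was 0.31 by DESeq2 for EpCAM+. For GFP+EpCAM+ it was -0.28 with library totals, -0.41 by limma and -0.01 without the deepest cell of each sum, an alternative chosen after seeing the data. For peritoneum it was 0.04 by DESeq2 and 0.27 with library totals, and 0.14 and 0.17 without mouse 1 and mouse 3. For kidney it was -0.43 by limma. With the mouse as a replicate block it was -0.09 for kidney and -1.06 for spleen, and the block changed no call of a member. In CD45+ against GFP+ the median stayed negative, at -0.21 by DESeq2 and -2.48 by limma. In CD45+ against GFP+EpCAM+ it stayed negative, at -0.75 by DESeq2, -0.55 with library totals, -1.96 by limma, -0.51 without the deepest cells and -0.73 with only these groups fitted. Liver stood at -2.51 without the deepest cells, and spleen at -0.64 with library totals and -0.33 by limma. Leaving out each mouse gave -1.38 to -0.37 for CD45+ against GFP+, -1.42 to -0.50 for CD45+ against GFP+EpCAM+, -0.65 to -0.05 for EpCAM+ and 0.05 to 0.62 for GFP+EpCAM+. It gave -0.70 to 0.17 for peritoneum, -1.06 to 0.87 for kidney, -3.25 to -0.95 for liver and -1.56 to -0.12 for spleen. Weighting cells alike moved the summed level to 9690 CPM in GFP+EpCAM+ and 11780 CPM in kidney. The causes of these moves were not tested.

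Single genes changed sign in 26 of 473 values. By limma these were Cox5a in CD45+ (-0.67), Uqcrc2 (-0.79) and Atp5f1 (-0.77) in EpCAM+, Ndufa12 in GFP+EpCAM+ (-0.41), Atp5d in CD45+ against GFP+EpCAM+ (-0.63), Ndufa2 (-0.69) and Atp5b (0.02) in kidney and Ndufa11 in liver (-0.15). By DESeq2 it was Atp5c1 in EpCAM+ (0.07), and with library totals Ndufa12 (-0.46). With the block they were Ndufs1 in liver (-0.33) and Atp5a1 (-0.01) and Atp5c1 (-0.24) in spleen. Without the deepest cells they were Ndufa12 (-0.05), Ndufs1 (-1.39), Atp5o (-0.11) and Atp5c1 in spleen (-0.13). Leaving out each mouse gave -0.04 to 0.41 for Ndufa12, -0.02 to 1.16 for Uqcr10 in peritoneum, and for kidney -1.22 to 0.12 for Atp5b, -1.53 to 1.69 for Ndufa2 and -0.15 to 1.75 for Ndufa13. In liver it gave -0.01 to 1.19 for Ndufa11 and -0.78 to 1.57 for Ndufs1, and in spleen -0.26 to 1.10 for Atp5a1 and -0.12 to 0.71 for Atp5c1.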

Other observations

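The 6 bulk libraries enter no test and have 1 library for most sorts. The members' sum was 900 CPM in the CD45+ bulk of mouse 1 (121118 counts), 14725 and 18244 CPM in GFP+ primary bulks of mice 1 and 2, and 24318 CPM in the GFP+ peritoneum bulk of mouse 1. GFP-negative bulks of mouse 1 gave 24845 CPM in peritoneum and 11620 CPM in the primary tumour, the latter from 8520 counts. In the bulk sums, fewer cells with high levels and less RNA per cell cannot be told apart.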
